A study of Mus musculus with 10 samples.

Results

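The inflammatory chemokines Ccl3, Ccl4, Ccl5, Ccl6 and Ccl9, their receptor Ccr1, the lymphocyte chemokine Xcl1 and its receptor Xcr1 were followed in single cells of mouse lymph nodes. These 8 genes were listed by name and not by a cut on measured values, but with earlier results of these data known. All 8 were present among the 32285 genes of each of the 5 gene matrices. All mice were wild-type BALB/C females, 8 weeks old. Mice of the 4T1 and 67NR groups carried orthotopic tumours of the mouse mammary carcinoma lines 4T1 and 67NR in mammary pad 4 and were taken at day 18, at a tumour size of 500 mm3. LPS mice were injected under the skin and taken after 72 h, and naive mice were untreated. The 4T1 line is known to spread to distant organs, whereas 67NR, from the same parental tumour, forms primary tumours only. The series concerns fibroblasts and monocytes in nodes that drain a breast tumour. Axillary nodes gave 3 hashtagged libraries, in which an antibody barcode marks the condition of each cell: a stromal library with 4T1, 67NR, LPS and naive cells, a myeloid and stromal library with 4T1, 67NR and naive cells, and a T cell library with the same conditions. A pair of atlases came from naive axillary and naive mediastinal nodes. The hashtag names add "pre-met" or "PM" to 4T1, NDLN to the naive control and PL to LPS, abbreviations that the labels do not explain. The treatment label of the stromal library does not name LPS, and the protocol names poly(I:C) beside LPS, so LPS cells are called so by their hashtag alone. At least 3 mice were taken per condition, but nothing ties cells to mice. Each condition therefore gave 1 sum of counts per library and cell gate, and its differences have no replicate check and no p-value except in fibroblasts, which were present in 2 hashtagged libraries.

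The measurement was the count of unique molecular identifiers (UMIs), one per captured transcript. Cells were assigned to gates by their markers, none of which is among the 8 genes. A gate needed at least 3 of its 6 markers, and was used where a condition held at least 50 cells. Between 2350 and 25148 cells per library were used, with library medians of 2272 to 12899 UMIs per cell. Levels are given in CPM, the UMIs of a gene scaled to 1000000 UMIs of the gate, with an exact Poisson 95% interval, and these intervals, like the binomial ones on ratios and shares, cover counting error only. Libraries shared 6 to 82 cell barcodes pairwise, at most 0.801% of the smaller library. Since a gate requires its own markers, their shares describe it and do not test it. S100a9 was found in 99.9% of neutrophils, Ccr2 in 98.9% of classical monocytes, Sirpa in 97.4% of conventional type 2 dendritic cells (cDC2), Ccr7 in 98.2% of migratory dendritic cells and Prf1 in 95.6% of natural killer (NK) cells. The rarest marker of each was Mmp8 in neutrophils (45.9%), Chil3 in monocytes (55.2%), Clec4a4 in cDC2 (10.4%), Ccl22 in migratory dendritic cells (86.8%) and Klri2 in NK cells (46.0%). The gate built for cDC1 in the myeloid and stromal library lacked a defining marker in most cells: 28.6% of its 56 cells held Clec9a, against 71.4% in the axillary atlas. It is therefore called by its markers below.

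Chemokines are small secreted proteins that guide leukocytes through G protein-coupled receptors. Ccl3 and Ccl4 (macrophage inflammatory proteins 1 alpha and 1 beta) and Ccl5 (RANTES) are inducible ligands: Ccl3 and Ccl5 bind Ccr1. Ccl6 and Ccl9 are rodent CC chemokines of myeloid cells that act through Ccr1, a receptor of neutrophils and monocytes. Xcl1 (lymphotactin), made by NK cells and activated CD8 T cells, attracts Xcr1-bearing cDC1, the cells that present captured antigen to CD8 T cells.

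The 5 CC ligands lie within 138.906 kb of chromosome 11 (GRCm38, GENCODE vM21, all protein-coding). From low to high coordinate they are Ccl5 (chr11:83525778-83530518, minus strand), Ccl9 (chr11:83572919-83578636, minus), Ccl6 (chr11:83587882-83593087, minus), Ccl3 (chr11:83647844-83649355, minus) and Ccl4 (chr11:83662584-83664683, plus). Xcr1 (chr9:123852315-123862029, minus) and Ccr1 (chr9:123962124-123968692, minus) are neighbours within 116.378 kb of chromosome 9, and Xcl1 lies at chr1:164931644-164935527 (minus). The 250 bases before the gene start were at hand for 6 of the 8 genes (RefSeq, GRCm38.p6), and Ccl4 and Ccl5 are named only. Ccl6 and Ccl9 are shown because, of all pairs among the 6 genes, theirs shared the longest run of letters, 13 bases against 7 to 12 in the other pairs. Each line reads 5′ to 3′ on the minus strand and ends at the base before the gene start, chr11:83593088-83593337 for Ccl6 and chr11:83578637-83578886 for Ccl9, with the shared run in capitals.
Ccl6: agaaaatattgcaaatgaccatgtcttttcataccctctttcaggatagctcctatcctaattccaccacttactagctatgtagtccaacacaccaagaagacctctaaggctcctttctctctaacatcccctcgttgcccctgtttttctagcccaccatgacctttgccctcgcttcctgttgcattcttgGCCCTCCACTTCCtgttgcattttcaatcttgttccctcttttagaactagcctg
Ccl9: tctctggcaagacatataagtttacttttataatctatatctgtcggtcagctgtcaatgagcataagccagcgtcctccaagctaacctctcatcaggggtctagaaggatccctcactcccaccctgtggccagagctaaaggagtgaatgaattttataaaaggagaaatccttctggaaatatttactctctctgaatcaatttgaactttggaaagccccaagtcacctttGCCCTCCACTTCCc
The run begins 55 bases before the start of Ccl6 and 14 bases before that of Ccl9, and the same letters occur in 5 of 32851 promoters (0.0152%). On either strand, Ccl9 held 1 match to the NF-kB motif (GGG, any 3 bases, then TTCC, in 4.65% of all promoters) and 1 to TGANTCA (AP-1, 6.75%). Ccl6 held 2 matches to AGGAAG (ETS, 29.5%), of which the one at base 47 before the start overlaps the end of the shared run. Xcl1 held 1 ETS match. No letters matching these motifs or the interferon response motif (GAAA, any 2 bases, then GAAA, in 2.98% of promoters) were present in the windows of Ccl3, Ccr1 and Xcr1. A match describes letters in this window and says nothing of binding.

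In the myeloid and stromal library the ligands fell to different main sources. Neutrophils held 39.0% of all Ccl3 UMIs, 45.5% of Ccl4 and 39.1% of Ccl6. Classical monocytes held 39.6% of Ccl9, 26.8% of Ccl6 and 11.5% of Ccl4, whereas neutrophils held only 4.36% of Ccl9. Migratory dendritic cells, antigen-presenting cells that have come from the tissue, held 78.7% of Ccl5, and NK cells a further 11.1%. Ccr1 was held by neutrophils (64.5%) and classical monocytes (19.6%). These shares depend on how many cells of each type were sorted.

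A small group stood out for Ccl3 and Ccl4. The 9 cells with basophil or mast cell markers held 3796 Ccl3 UMIs (38.7% of the library), of which 996 were in 1 cell, and 6142 Ccl4 UMIs (21.6%). In the stromal library 1 such cell, from a 4T1 node, held 227 of 232 Ccl3 UMIs and 417 of 429 Ccl4 UMIs. These cells were too few for a comparison of conditions.

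Levels per captured UMI were compared first in naive nodes. Ccl6 was found at 860 CPM in classical monocytes (95% interval 809 to 913) and at 819 CPM in neutrophils (790 to 850), intervals that overlap, and lower at 339 CPM in cDC2, 53.4 CPM in migratory dendritic cells and 16.3 CPM in fibroblasts. Ccl9 was found at 758 CPM in classical monocytes, 430 CPM in cDC2, 202 CPM in migratory dendritic cells, 105 CPM in neutrophils and 18.1 CPM in fibroblasts. Ccl9 was highest in classical monocytes, and neutrophils, near monocytes for Ccl6, were well below them for Ccl9. Ccr1 was found at 950 CPM in neutrophils, 271 CPM in classical monocytes, 40.6 CPM in cDC2, 11 CPM in migratory dendritic cells and 7.77 CPM in fibroblasts.

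Ccl4 in naive nodes was found at 1074 CPM in neutrophils, 465 CPM in NK cells (interval 419 to 514), 343 CPM in classical monocytes (312 to 378), 149 CPM in cDC2, 28.6 CPM in migratory dendritic cells and 23.3 CPM in fibroblasts, where the last 2 levels overlap in their intervals. Ccl3 followed with 393 CPM in neutrophils, 129 CPM in classical monocytes, 59.6 CPM in NK cells, 38.1 CPM in cDC2 and 25.2 CPM in migratory dendritic cells. Ccl5 was found at 11255 CPM in NK cells and 6183 CPM in migratory dendritic cells, against 210 CPM in classical monocytes, 207 CPM in neutrophils, 60.3 CPM in cDC2 and 13.7 CPM in fibroblasts. Xcl1 was found at 292 CPM in NK cells and at 5.60 CPM or less in the other 5 naive gates. Fibroblasts, not known as a source of these ligands in the unstimulated node, served as the background gate for shares of cells with a UMI: 9.24% of 184 naive fibroblasts held a Ccl4 UMI and 17.4% a Ccl5 UMI, at a median depth of 15305 UMIs. In naive neutrophils, at a median of 3617 UMIs, the shares were 30.6% for Ccl4 and 20.5% for Ccl5. With every cell thinned to 1000 UMIs a Ccl5 UMI was found in 5.18% of naive neutrophils and 2.19% of naive fibroblasts.

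**Figure D1:**
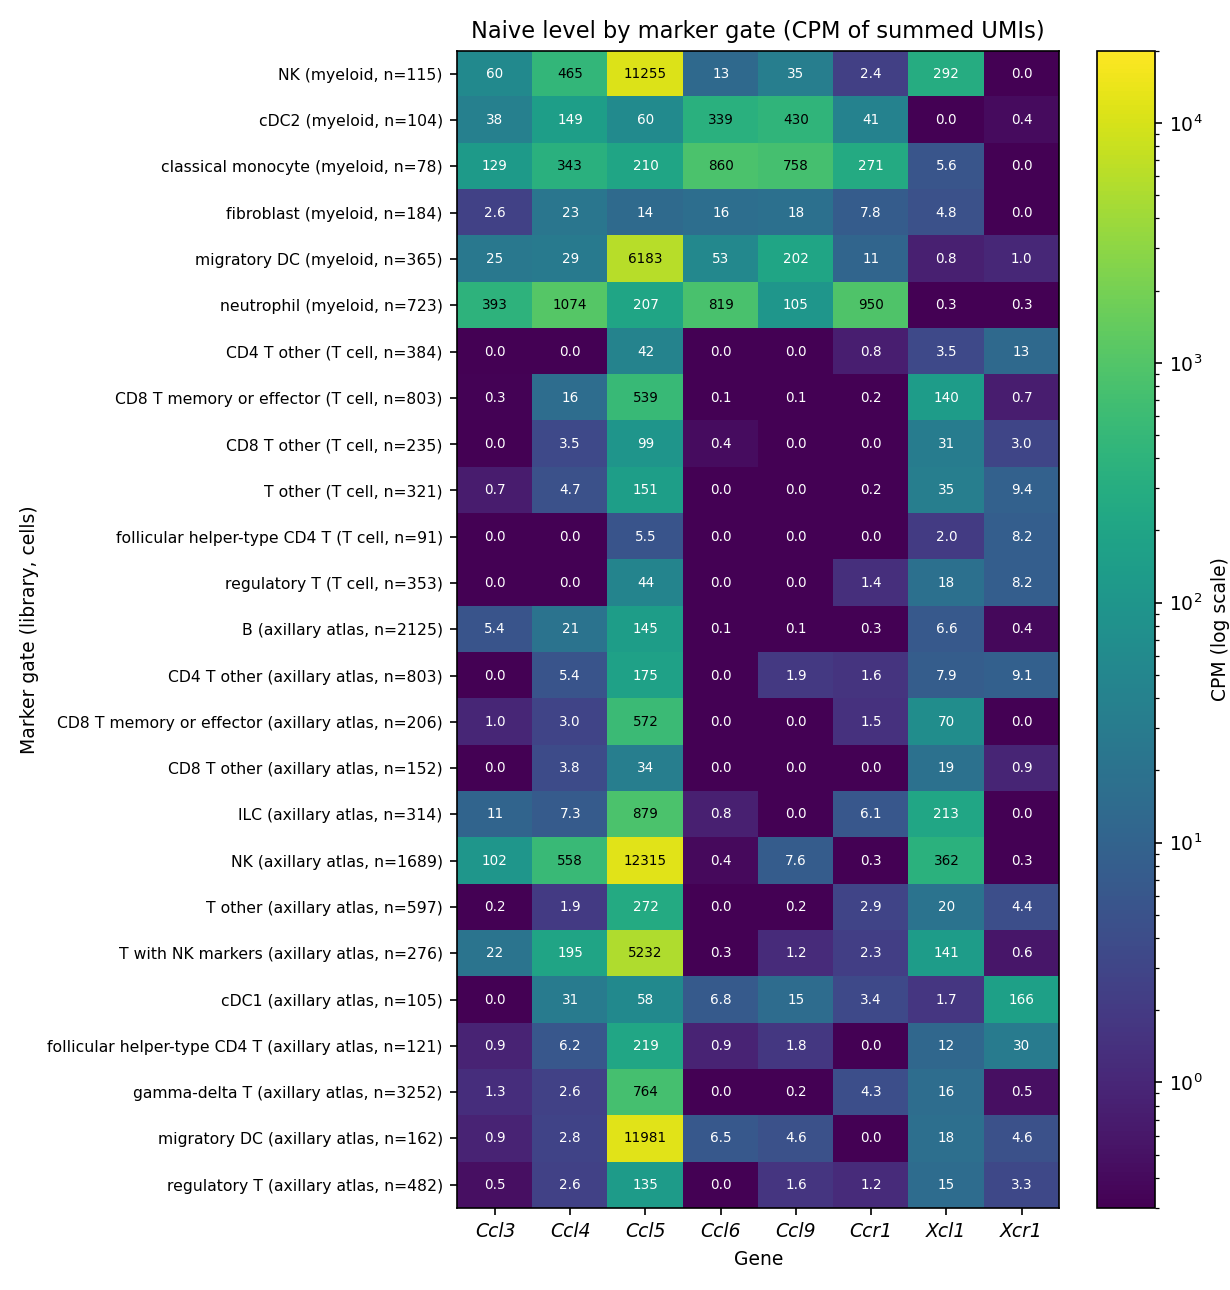
Heat map of the level of the 8 genes (CPM, colour on a log scale) in each gate of naive cells in the myeloid and stromal library, the T cell library and the axillary atlas. Ccl5 is highest in NK cells and migratory dendritic cells, Ccr1 in neutrophils, Ccl9 in classical monocytes, and Xcr1 in the cDC1 gate of the atlas.

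The transcripts were unevenly spread over cells of a gate. The 5% of neutrophils with the most UMIs of the gene held 63.1% of neutrophil Ccl4 and 60.4% of Ccl3, but 33.0% of Ccl6 and 15.6% of Ccr1. In classical monocytes the top 5% held 81.2% of Ccl4 and 76.9% of Ccl3, but 20.4% of Ccl9. The Ccl3 and Ccl4 levels of these 2 gates thus rested on few cells, more than those of Ccl6 and Ccr1 in neutrophils or Ccl9 in monocytes. For this reason ratios below were also computed without the cell with the most UMIs and without the top 5% of cells of each condition. Both checks were chosen after the data were seen. They covered the genes named at the outset, in the myeloid and stromal and T cell libraries only. The LPS over naive ratio of the stromal library and the ratios of other genes were not checked in this way.

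Ccl3 and Ccl4 were often in the same cell. Ccl4 was found in 52.8% of the 508 neutrophils with a Ccl3 UMI and in 24.6% of neutrophils without one, at median depths of 5002.5 and 4496 UMIs. In classical monocytes the shares were 63.8% and 25.1%, in cDC2 56.8% and 26.3%, and in migratory dendritic cells 21 of the 70 cells with Ccl3 and 9.94% of those without. For Ccl9 in cells with and without Ccl6 the shares were 94.9% and 68.1% in classical monocytes, 89.4% and 56.8% in cDC2 and 72.7% and 39.6% in migratory dendritic cells. In neutrophils, which held little Ccl9, they were 13.4% and 6.54%. Deeper cells hold more of every gene, and these shares are not adjusted for depth.

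Conditions were then set against each other within gates. A ratio was called where the higher sum held at least 50 UMIs, the ratio was at least 2-fold and its 95% interval excluded no difference. In the 5 gates of the myeloid and stromal library with all 3 conditions, 27 gene and gate pairs were measured for each comparison with naive nodes. For 4T1 over naive, 0 were called higher and 10 lower, and for 67NR over naive, 1 higher and 7 lower. Among all measured genes, lower calls also outnumbered higher ones in most of these gates. In neutrophils 522 were lower and 224 higher for 4T1 over naive, and 703 and 141 for 67NR over naive. The reverse held in classical monocytes for 4T1 over naive (236 and 303) and in fibroblasts for 67NR over naive (182 and 221). The direction of the calls thus does not set the 8 genes apart from other genes. In share, 2.84% to 9.70% of all measured genes were called lower in these gates for 4T1 over naive. For 67NR over naive it was 2.21% to 11.9% outside fibroblasts, where 4.84% were called either way. The pairs share genes and sums, and their excess over these shares was not tested. With B cells added, 4 of 27 pairs were higher and 6 lower in 4T1 than in 67NR. Both tumour groups were compared with the same naive sums.

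Neutrophils had less Ccl6 in 4T1 nodes than in either other group. The gate held 352 CPM of Ccl6 in 284 cells of 4T1 nodes, 1033 CPM in 828 cells of 67NR nodes and 819 CPM in 723 cells of naive nodes, and a Ccl6 UMI was found in 52.1%, 74.2% and 70.1% of cells in the same order. 4T1 stood below both other groups, with intervals that do not overlap. The log2 ratio of 4T1 over naive was -1.22 (interval -1.33 to -1.11), that of 4T1 over 67NR was -1.55 (-1.65 to -1.45), and that of 67NR over naive was 0.33 and not called. Without the top 5% of cells the first 2 were -1.42 and -1.79. With every cell thinned to 1000 UMIs a Ccl6 UMI was found in 18.6% of 4T1, 46.8% of 67NR and 41.3% of naive neutrophils. Of the 6 genes measured in neutrophils, 2 were called lower in 4T1 than in naive nodes (9.70% of all measured genes were), 2 lower in 67NR than in naive nodes (11.9% of all) and 1 lower in 4T1 than in 67NR (2.99% of all).

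The other called neutrophil ratios were less secure. Ccl5 was found at 66.5 CPM in 4T1, 41.9 CPM in 67NR and 207 CPM in naive neutrophils, with log2 ratios of -1.63 for 4T1 over naive and -2.30 for 67NR over naive. One naive cell held 296 of the 738 naive UMIs, and without the top 5% of cells the ratios were -0.65 and -0.98. Beside this, the summed markers of migratory dendritic cells in the neutrophil gate of the myeloid and stromal library were 61.2 CPM in 4T1, 46.1 CPM in 67NR and 121 CPM in naive nodes, and those of NK cells 0.8, 3.0 and 12.3 CPM, with 4, 3 and 0 of 6 NK markers at 0. Their part in the result was not tested. Ccl9 was found at 77.1 CPM in 4T1, 43.5 CPM in 67NR and 105 CPM in naive neutrophils, and its 67NR over naive ratio of -1.27 was -0.83 and no longer called under TMM scaling. The median ratio of all genes in this comparison was -0.36, and TMM scaling raised every neutrophil ratio of 67NR over naive by 0.44.

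Ccl3, Ccl4 and Ccr1 were not called in neutrophils in any of the comparisons. Ccl4 was found at 1383 CPM in 4T1, 908 CPM in 67NR and 1074 CPM in naive neutrophils, and in 42.6%, 30.6% and 30.6% of cells. Ccl3 was found at 350 CPM in 4T1, 250 CPM in 67NR and 393 CPM in naive neutrophils. Thinned to 1000 UMIs, a Ccl4 UMI was found in 26.1% of 4T1, 19.9% of 67NR and 19.7% of naive cells. The log2 ratio of Ccl4 was 0.37 for 4T1 over naive, -0.24 for 67NR over naive (0.20 with TMM scaling) and 0.61 for 4T1 over 67NR. Ccr1 was found at 682 CPM in 4T1, 830 CPM in 67NR and 950 CPM in naive neutrophils and in over 9 of 10 cells of each group (91.9%, 95.2% and 92.1%).

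Classical monocytes had less Ccl3 and Ccl5 in both tumour groups than in naive nodes, and more Ccl3 and Ccl4 in 4T1 than in 67NR nodes. The gate held 336 cells of 4T1 nodes, 133 of 67NR nodes and 78 of naive nodes. Ccl3 was found at 54.5 CPM in 4T1 (interval 49.3 to 60.04), 22.8 CPM in 67NR (17.3 to 29.6) and 129 CPM in naive monocytes (110 to 150), in 64, 19 and 22 cells. Naive monocytes were highest and 67NR lowest. The log2 ratios were -1.24 (-1.51 to -0.97) for 4T1 over naive, -2.50 (-2.96 to -2.05) for 67NR over naive and 1.26 (0.85 to 1.68) for 4T1 over 67NR, a fold of 2.39. Without the top 5% of cells they were -2.19, -3.43 and 1.25.

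Ccl4 in classical monocytes was found at 350 CPM in 4T1, 90.5 CPM in 67NR and 343 CPM in naive nodes, while the share of cells with a UMI was 32.4%, 30.1% and 37.2%. The 67NR level was the low one. The log2 ratio was -1.92 (-2.16 to -1.69) for 67NR over naive, 1.95 (1.76 to 2.16) for 4T1 over 67NR, a fold of 3.87, and 0.03 (-0.12 to 0.18) for 4T1 over naive. This last value rested on a few cells: 1 cell held 467 of the 2630 UMIs of the 4T1 sum, and without the top 5% of cells 4T1 over naive was -1.65. Without them the 67NR over naive and 4T1 over 67NR ratios were -2.73 and 1.08.

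Ccl5 in classical monocytes was found at 74.6 CPM in 4T1, 83.3 CPM in 67NR and 210 CPM in naive nodes. Both tumour groups stood below naive and near each other, with log2 ratios of -1.49 (-1.71 to -1.27) for 4T1 over naive, -1.33 (-1.60 to -1.06) for 67NR over naive and -0.16 for 4T1 over 67NR. Without the top 5% of cells the ratios over naive were -1.52 and -1.11, the second no longer called. With every cell thinned to 1000 UMIs neither was called (-0.96 and -2.02). A Ccl5 UMI was found in 29.8% of 4T1, 33.8% of 67NR and 35.9% of naive monocytes, and in fibroblasts of the same groups in 28.2%, 30.3% and 17.4%, at medians of 16740.5, 17053 and 15305 UMIs. In tumour nodes the monocyte share thus lay near that of the background gate. Of 6 genes measured in monocytes, 2 were called lower in 4T1 than in naive nodes (2.93% of all genes), 3 lower in 67NR than in naive nodes (2.21% of all), and 2 higher in 4T1 than in 67NR (1.79% of all). The summed neutrophil markers in the monocyte gate of the myeloid and stromal library were 1552 CPM in 4T1, 723 CPM in 67NR and 2879 CPM in naive nodes, with 0 of 6 markers at 0 in any group, the same order as Ccl3. Their part in these ratios was not tested.

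Ccl6 and Ccl9, carried by most monocytes, differed less between the groups. Ccl6 was found at 509 CPM in 4T1, 799 CPM in 67NR and 860 CPM in naive monocytes, and Ccl9 at 615 CPM in 4T1, 824 CPM in 67NR and 758 CPM in naive monocytes. Both were lowest in 4T1 nodes, by log2 -0.76 for Ccl6 and -0.30 for Ccl9 over naive, under the 2-fold limit. Their receptor Ccr1 was found at 298 CPM in 4T1, 206 CPM in 67NR and 271 CPM in naive monocytes, with a log2 ratio of 0.53 (0.39 to 0.67) for 4T1 over 67NR. A Ccr1 UMI was found in 86.9% of 4T1, 63.9% of 67NR and 65.4% of naive monocytes at median depths of 21835.5, 18477 and 14665.5 UMIs. Thinned to 1000 UMIs the shares were 23.3%, 16.5% and 25.6%, so the high share in 4T1 monocytes over naive ones was not kept at equal depth.

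**Figure D2:**
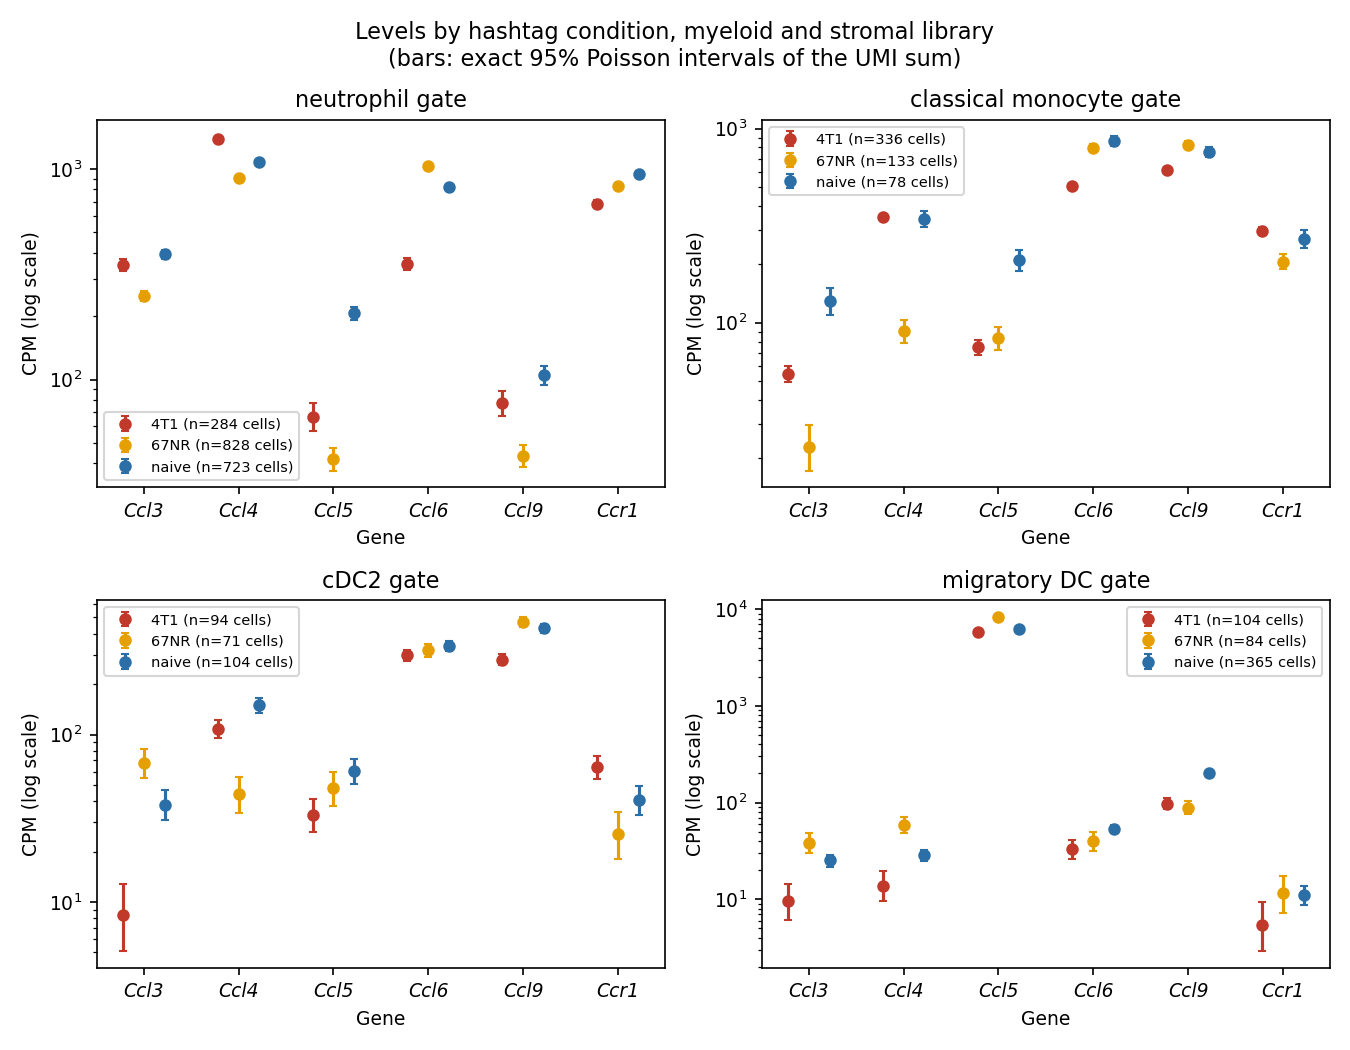
Levels (CPM, log axis) of the 5 CC ligands and Ccr1 in neutrophils, classical monocytes, cDC2 and migratory dendritic cells of 4T1, 67NR and naive nodes in the myeloid and stromal library, with exact Poisson 95% intervals as bars. Ccl6 in neutrophils is lowest in 4T1 nodes (352 CPM), and Ccl3 in classical monocytes is highest in naive nodes (129 CPM).

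In cDC2, dendritic cells that present antigen to CD4 T cells, Ccl3 was lowest in 4T1 nodes and Ccl4 lowest in 67NR nodes. Ccl3 was found at 8.32 CPM in 94 cells of 4T1 nodes, 67.4 CPM in 71 cells of 67NR nodes and 38.1 CPM in 104 cells of naive nodes, carried by 7, 10 and 20 cells. Its log2 ratio was -2.19 (-2.97 to -1.48) for 4T1 over naive and -3.02 (-3.79 to -2.32) for 4T1 over 67NR. Neither was called without the top 5% of cells (-4.03 and -2.90, on 2 UMIs in 4T1) or thinned to 1000 UMIs (-0.27 and -1.82). Ccl4 was found at 108 CPM in 4T1, 43.9 CPM in 67NR and 149 CPM in naive cDC2. The 67NR over naive ratio was -1.77 (-2.16 to -1.39). The 4T1 over 67NR ratio of 1.30 rested on 1 cell with 130 of the 259 UMIs of the 4T1 sum, and was 0.59 without it.

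Ccr1 in cDC2 was found at 63.7 CPM in 4T1 (interval 54.0 to 74.6), 25.4 CPM in 67NR (18.2 to 34.6) and 40.6 CPM in naive nodes (32.9 to 49.5), and in 35.1%, 25.4% and 26.9% of cells. 4T1 was the highest, with a log2 ratio over 67NR of 1.32 (0.81 to 1.86), a fold of 2.50, and 1.61 without the top 5% of cells. Over naive the ratio was 0.65 (0.27 to 1.03) and not called. Ccl9 was found at 280 CPM in 4T1, 470 CPM in 67NR and 430 CPM in naive cDC2 and Ccl6 at 297, 318 and 339 CPM, none called. Of the 6 genes measured, 1 was called lower in 4T1 than in naive nodes (2.84% of all genes), 1 lower in 67NR than in naive nodes (2.55%), and 2 higher (2.31%) and 1 lower (0.647%) in 4T1 than in 67NR. Summed neutrophil markers in the cDC2 gate of the myeloid and stromal library were 196 CPM in 4T1, 278 CPM in 67NR and 376 CPM in naive nodes, and those of migratory dendritic cells 404, 711 and 985 CPM. Their part in these ratios was not tested.

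Migratory dendritic cells kept Ccl5 in all conditions and had less Ccl9 in both tumour groups. Ccl5 was found at 5860 CPM in 104 cells of 4T1 nodes, 8211 CPM in 84 cells of 67NR nodes and 6183 CPM in 365 cells of naive nodes, in 83.7%, 94.0% and 89.3% of cells. The log2 ratios were -0.08 for 4T1 over naive, 0.41 for 67NR over naive and -0.49 (-0.52 to -0.45) for 4T1 over 67NR, none of them called. Ccl9 was found at 97.2 CPM in 4T1, 88.4 CPM in 67NR and 202 CPM in naive cells, in 28.8%, 36.9% and 55.9% of cells (13.5%, 13.9% and 8.70% of fibroblasts). Both tumour groups were below naive, by log2 -1.06 (-1.26 to -0.85) in 4T1 and -1.19 (-1.43 to -0.96) in 67NR, and by -1.48 and -1.80 without the top 5% of cells. In the same order the summed cDC2 markers in this gate of the myeloid and stromal library were 131, 89.4 and 287 CPM and the summed macrophage markers 10.9, 6.3 and 76.2 CPM, and their part in the Ccl9 result was not tested.

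The remaining calls in migratory dendritic cells were of low counts. Ccl3, Ccl4 and Ccr1 were called lower in 4T1 than in naive nodes (log2 -1.38, -1.04 and -1.01), on sums of 23, 33 and 13 UMIs in 4T1 nodes. With a stricter hashtag ratio of 10 none of the 3 was called. Ccl3 was also called lower in 4T1 than in 67NR (-1.98). It was not called without the top cell, which left 8 and 28 UMIs, or thinned to 1000 UMIs (-0.33). A Ccl4 UMI was found in 17.3% of 4T1, 8.33% of 67NR and 12.1% of naive cells, a range that overlaps that of fibroblasts (6.47%, 12.0% and 9.24%). Ccl4 was also called higher in 67NR than in naive nodes (1.05) and lower in 4T1 than in 67NR (-2.09), but 1 cell of the 67NR nodes held 106 of 113 UMIs, and without the top cell of each group the ratios were -2.18 and 1.05. In all, 4 of 6 genes were lower in 4T1 than in naive nodes (3.92% of all genes), 1 higher (2.43%) and 1 lower (3.88%) in 67NR than in naive nodes, and 2 of 5 lower in 4T1 than in 67NR (1.15%). B cells gave 1 called pair of 1 measured, Ccl6 lower in 4T1 than in 67NR (0.945% of all genes), with 7 and 63 UMIs, of which 56 were in 1 cell, and a ratio of -0.17 without it.

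Other inflammatory genes of the same cells were counted from lists of 8 genes each, of which only some were measured. Of other inflammatory CC chemokines, Ccl7 and Ccl2, ligands of the monocyte receptor Ccr2, were both higher in 4T1 than in 67NR nodes in neutrophils (log2 1.27 and 1.26, 2 of 3 measured, with Ccl11 lower at -1.37) and in classical monocytes (1.38 and 1.29, 2 of 3). The list medians were 1.26 and 1.29, against 0.23 and 0.01 for all measured genes, of which 7.69% were called higher in neutrophils and 1.79% in monocytes. TMM scaling lowered every neutrophil ratio of 4T1 over 67NR by 0.35, which puts Ccl7 and Ccl2 under the 2-fold limit in neutrophils. In migratory dendritic cells all 3 measured were higher in 4T1 than in naive nodes, Ccl7 at 1.74, Ccl2 at 1.16 and Ccl24 at 1.01, where all genes had a median of 0.06 and 2.75% of them were called higher. There TMM scaling lowered every ratio by 0.12, which puts Ccl24 under the 2-fold limit. Of the other receptors, Ccr2 was higher in 4T1 than in 67NR neutrophils (1.84). Ccr2 is also a marker of the classical monocyte gate, and the part of monocyte transcripts in this ratio was not tested. Ccrl2, a receptor-like protein, was lower in monocytes of both tumour groups than in naive ones (-1.29 in 4T1 and -1.83 in 67NR).

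Of early NF-kB genes and cytokines, few were called in monocytes and most in 4T1 cDC2, all of them lower in tumour than in naive nodes. In monocytes 2 of 8 were lower in 4T1 nodes (Nfkbiz at -1.60 and Tnfaip3 at -1.17) and 3 of 7 in 67NR nodes (Nfkbiz at -1.39 and Tnf at -1.03 among them), with list medians of -0.64 and -0.90, against 0.03 and 0.04 for all genes, of which 2.93% and 2.21% were called lower. In cDC2 5 of 7 were lower in 4T1 nodes, Tnf at -2.79, with a list median of -1.18 against 0.09 for all genes (2.84% called lower), and in 67NR nodes 1 of 7 was (2.55% of all genes). Dissociation stress genes, a sign of handling, were also called in these cells: 4 of 8 were lower in 4T1 and 6 of 8 in 67NR monocytes than in naive ones, with list medians of -0.95 and -1.93, and none was higher. In neutrophils 4 of 8 were lower in 4T1 (list median -1.03 against -0.11 for all genes, 9.70% of them called lower) and 5 of 8 in 67NR nodes (-1.31 against -0.36, 11.9% called lower). In cDC2 4 of 8 were lower in 4T1 and none in 67NR nodes, and in migratory dendritic cells 3 of 8 were higher in 4T1 and 2 of 8 in 67NR nodes (2.75% and 2.43% of all genes). The part of handling in the Ccl3, Ccl4 and Ccl5 ratios was not tested.

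**Figure D3:**
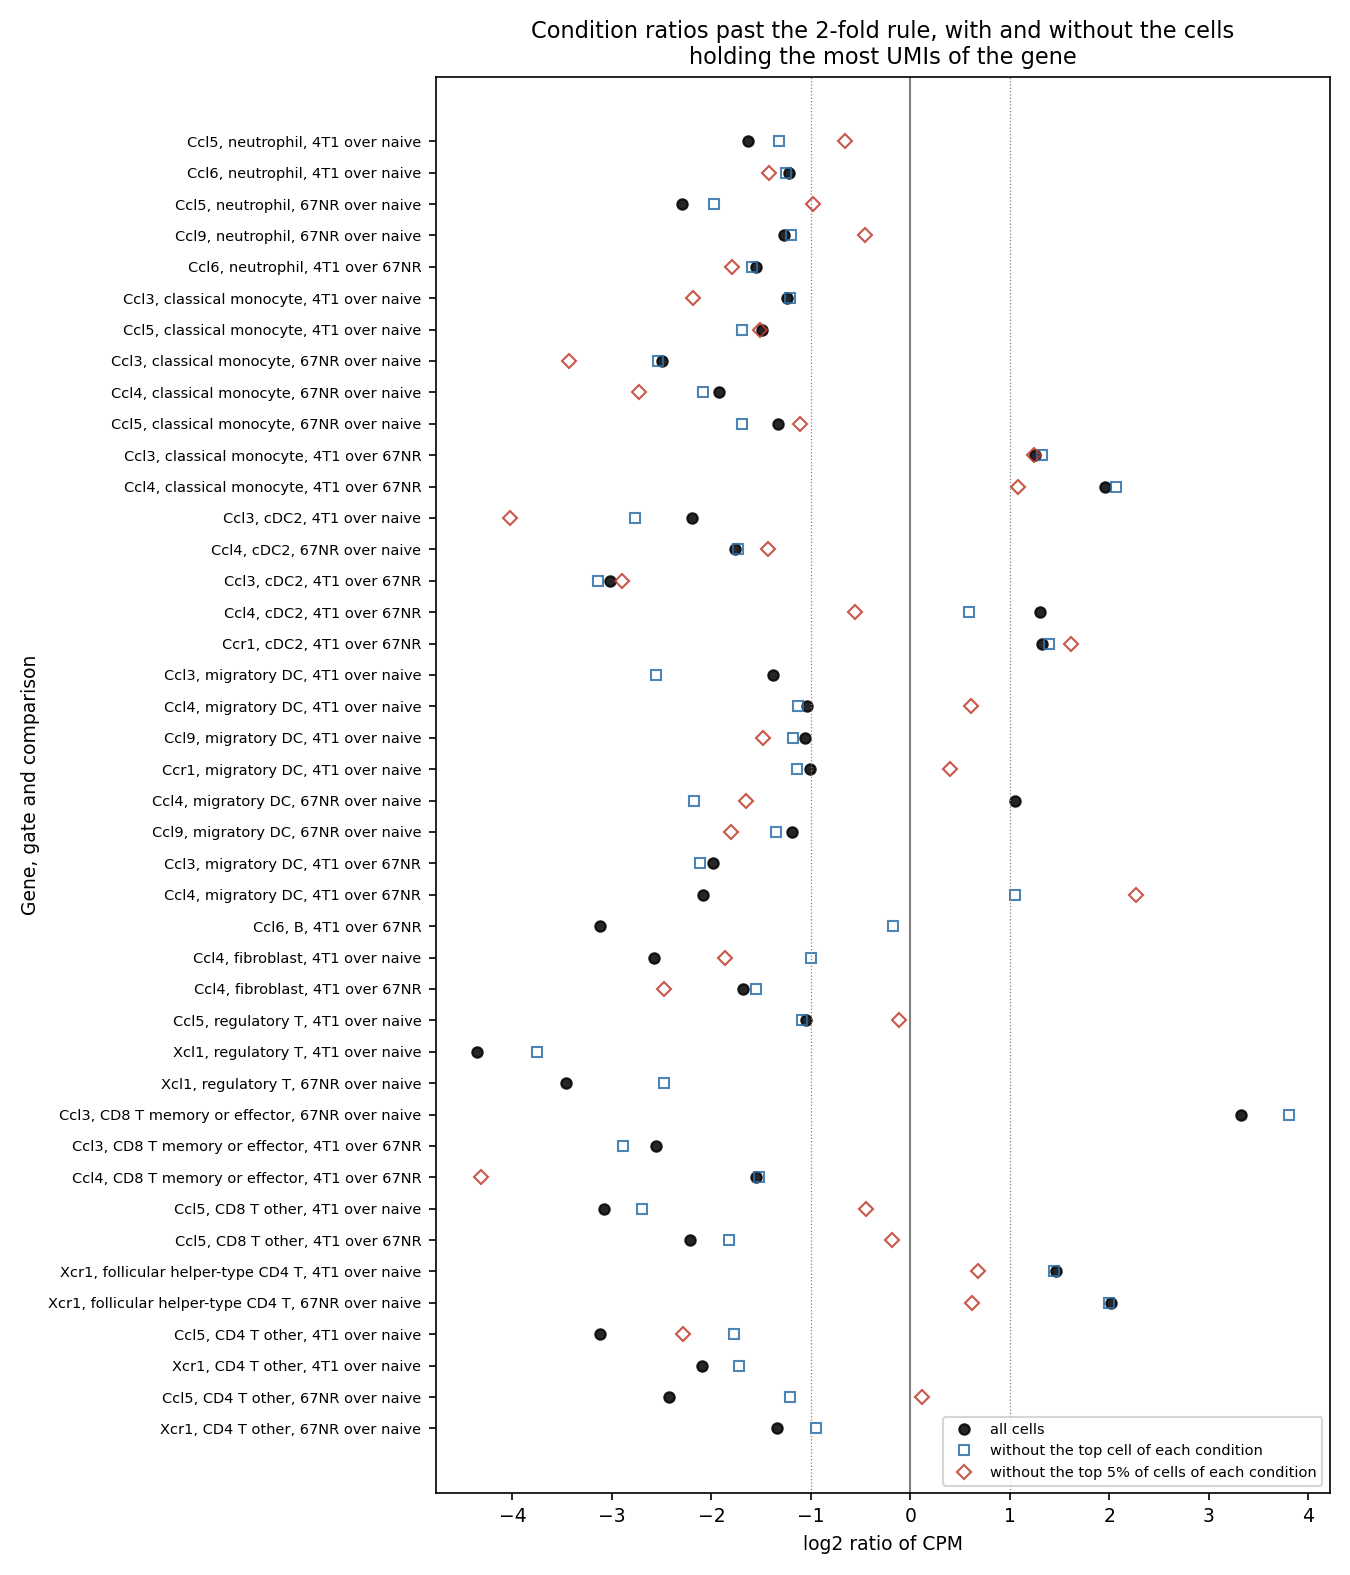
All 42 called log2 CPM ratios of the 8 genes in the myeloid and stromal and T cell libraries. They are drawn as points without intervals, from all cells (black), without the cell with the most UMIs of the gene in each condition (blue squares) and without the top 5% of cells (red diamonds). Without the top 5% of cells, 12 of the 28 myeloid and stromal ratios and 0 of the 14 T cell ratios were still called.

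Fibroblasts could be tested, since sums of 4T1, 67NR and naive cells came from both the stromal and the myeloid and stromal library. In edgeR's quasi-likelihood test with the library as a block, none of the 5 genes tested passed an adjusted p of 0.05 (Benjamini-Hochberg over 12108 genes) for 4T1 over naive (0.801% of all genes passed), 67NR over naive (2.59%) or 4T1 over 67NR (0% passed, 492 genes at an unadjusted p under 0.05, and 1 gene in DESeq2). At an unadjusted p under 0.05 there were 2, 0 and 1 of the 5 in these comparisons, and DESeq2 called 0. These p-values measure the spread between 2 libraries, which may be technical. The smallest adjusted p of the 5 was that of Ccl4 for 4T1 over naive, with a log2 change of -2.45 ± 0.52 (SE) and an adjusted p of 0.0762 in edgeR. Ccl6 gave -1.51 ± 0.57 and Ccl5 0.19 ± 0.48, with edgeR adjusted p of 0.288 and 0.888. Ccl6 and Ccr1 held 0 UMIs in the 4T1, 67NR and naive sums of the stromal library. Their results thus rest on the myeloid and stromal library and measure no spread between libraries. Ccl4 held 0, 1 and 0 UMIs in the same stromal sums, so its result also rests almost wholly on the myeloid and stromal library. With no gene filter Ccl4 was called (adjusted p 0.000499544 in edgeR, log2 change -2.43).

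The fibroblast Ccl4 counts came from 1 library. In the stromal library the gate held 0 Ccl4 UMIs in 161 cells of 4T1, 1 in 592 cells of 67NR and 0 in 187 cells of naive nodes. In the myeloid and stromal library it held 11, 53 and 63 UMIs, of which 44 of the 63 naive ones were in 1 cell. The counting ratio there was called for 1 of 3 genes in 4T1 over naive (Ccl4, log2 -2.58, lower, 3.98% of all genes), for 0 of 3 in 67NR over naive (4.84% called either way) and for 1 of 3 in 4T1 over 67NR (Ccl4, -1.68, lower, 1.47%). Summed neutrophil markers in these fibroblasts of the myeloid and stromal library were 314 CPM in 4T1, 305 CPM in 67NR and 467 CPM in naive nodes. Only 5 of 170, 11 of 251 and 5 of 184 fibroblasts were free of any neutrophil, migratory dendritic cell or NK marker UMI. The part of free RNA in these counts was not tested. In the stromal library, which alone held LPS cells, fibroblasts had 9.62 CPM of Ccl5 after LPS (63 UMIs in 380 cells) and 3.80 CPM in naive nodes (9 UMIs in 187 cells), a log2 ratio of 1.34, called higher with 1.33% of all genes. A Ccl5 UMI was found in 6.58% of LPS (interval 4.30 to 9.56) and 4.81% of naive fibroblasts (2.22 to 8.94), shares that overlap. The LPS sum rested on few cells, since 19 cells held 90.5% of its Ccl5 UMIs.

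In the T cell library CD8 T cells with memory or effector markers held most UMIs of 4 ligands. They held 80.5% of Ccl3, 74.4% of Ccl4, 74.5% of Ccl5 and 82.1% of Xcl1 UMIs. For Ccl3 the whole library held only 82 UMIs, and 31 of the 2667 cells of this gate held one. Xcl1 was found at 139 CPM in 942 cells of 4T1 nodes, 150 CPM in 922 cells of 67NR nodes and 140 CPM in 803 cells of naive nodes, and in 27.8%, 33.1% and 25.3% of cells. The groups lay close together, with log2 ratios of -0.01 (-0.10 to 0.08) for 4T1 over naive and 0.10 (0.01 to 0.19) for 67NR over naive. Ccl5 was found at 377 CPM in 4T1, 431 CPM in 67NR and 539 CPM in naive cells, lowest in 4T1 by log2 -0.52 over naive, and not called. These levels were uneven too, since the top 5% of the cells held 97.0% of Ccl4, 71.1% of Xcl1 and 63.6% of Ccl5.

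Ccl4 and Ccl3 in these CD8 T cells were highest in 67NR nodes. Ccl4 was found at 8.22 CPM in 4T1, 24 CPM in 67NR and 15.8 CPM in naive cells, in 5.20%, 7.27% and 4.98% of cells, with a log2 ratio of -1.55 (-1.84 to -1.26) for 4T1 over 67NR. The ratio was -1.53 without the top cell of each group, and it was not called without the top 5% of cells, which left 1 UMI in 4T1 and 20 in 67NR cells. Ccl3 gave 9 UMIs in 6 cells of 4T1 nodes, 53 UMIs in 22 cells of 67NR nodes and 4 UMIs in 3 cells of naive nodes, with log2 ratios of 3.32 (1.88 to 5.25) for 67NR over naive and -2.56 for 4T1 over 67NR. Without the top cell no sum reached 50 UMIs. Transcripts of myeloid cells were also found in the 67NR cells of this gate: Il1b gave 5 UMIs in 4T1, 442 in 67NR and 1 in naive cells, Cxcl2 gave 1, 435 and 1, Ccl9 gave 0, 17 and 1 and Ccr1 gave 0, 12 and 3. The summed neutrophil markers of the gate in the T cell library were 0.423 CPM in 4T1, 0.966 CPM in 67NR and 0.480 CPM in naive cells, with 4, 1 and 3 of 6 markers at 0, and the part of other cells in the Ccl3 and Ccl4 ratios was not tested. Calls covered 0 of 3 genes for 4T1 over naive (0.635% of all genes either way), 1 of 4 higher in 67NR than in naive nodes (0.594%) and 2 of 4 lower in 4T1 than in 67NR (0.269%). Of 8 cytotoxic genes in the same gate, the granzymes Gzmb (1.61) and Gzma (1.41) were higher in 4T1 than in naive nodes (0.373% of all genes were), and Gzma was higher in 4T1 than in 67NR nodes (2.66, with 0.199% of all genes). For 67NR over naive Gzmk was higher (1.19), Gzmb was higher (1.17) and Gzma was lower (-1.25, with 0.252% of all genes lower). Gzmk is also a marker of this gate. Gzma is an NK marker, and T cells with enough NK markers were placed in another gate. The part of the gating in the Gzmk and Gzma ratios was not tested.

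Ccl5 in the other T cell gates rested on few cells. In CD8 T cells with fewer memory markers it was found at 11.8 CPM in 4T1, 54.5 CPM in 67NR and 99.1 CPM in naive nodes, yet in 9.09%, 9.33% and 9.79% of cells. The log2 ratio of 4T1 over naive was -3.08 (-3.75 to -2.47), and -0.45 without the top 5% of cells. Here 1 of 2 genes was called lower in 4T1 than in naive nodes (0.390% of all genes), 0 of 2 for 67NR over naive (0.693%) and 1 of 2 lower in 4T1 than in 67NR (0.405%). In regulatory T cells Ccl5 was found at 21.2 CPM in 4T1, 41.0 CPM in 67NR and 44.1 CPM in naive nodes, again in like shares of cells (13.2%, 11.6% and 12.7%). The 4T1 over naive ratio of -1.05 (-1.39 to -0.72) was -1.09 without the top cell and -0.11 without the top 5% of cells, and was not called with 2 or 4 markers per gate (-0.80 at the least). Xcl1 was also called lower there in both tumour groups, with 5 UMIs in 4T1 nodes, 9 in 67NR nodes and 80 in naive nodes, 49 of the 80 in 1 cell. Calls in regulatory T cells covered 2 of 2 genes lower in 4T1 than in naive nodes (0.443%), 1 of 2 lower in 67NR than in naive nodes (0.474%) and 0 of 1 for 4T1 over 67NR (0.559%).

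In the remaining CD4 T cells Ccl5 was found at 4.86 CPM in 4T1, 7.86 CPM in 67NR and 42.3 CPM in naive nodes, with 108 of the 168 naive UMIs in 1 cell. The log2 ratio of 4T1 over naive was -3.12, and -1.77 without the top cell. A Ccl5 UMI was found in 5.45%, 6.71% and 6.51% of these cells, at medians of 8663.5 to 9452 UMIs. In follicular helper-type cells, a gate not known for Ccl5, the shares were 4.73%, 5.92% and 5.49%, at medians of 10019 to 11039 UMIs. The remaining CD4 T cells thus lay near that gate, and their shares are not read as a source of Ccl5. The part of free RNA in them was not tested. Both measured genes, Ccl5 and Xcr1, were called lower in 4T1 than in naive nodes (0.629% of all genes) and in 67NR than in naive nodes (1.15%). In T cells of no other gate, 0 of 2 genes were called for 4T1 over naive, 67NR over naive or 4T1 over 67NR (0.835%, 0.918% and 0.723% of all genes).

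**Figure D4:**
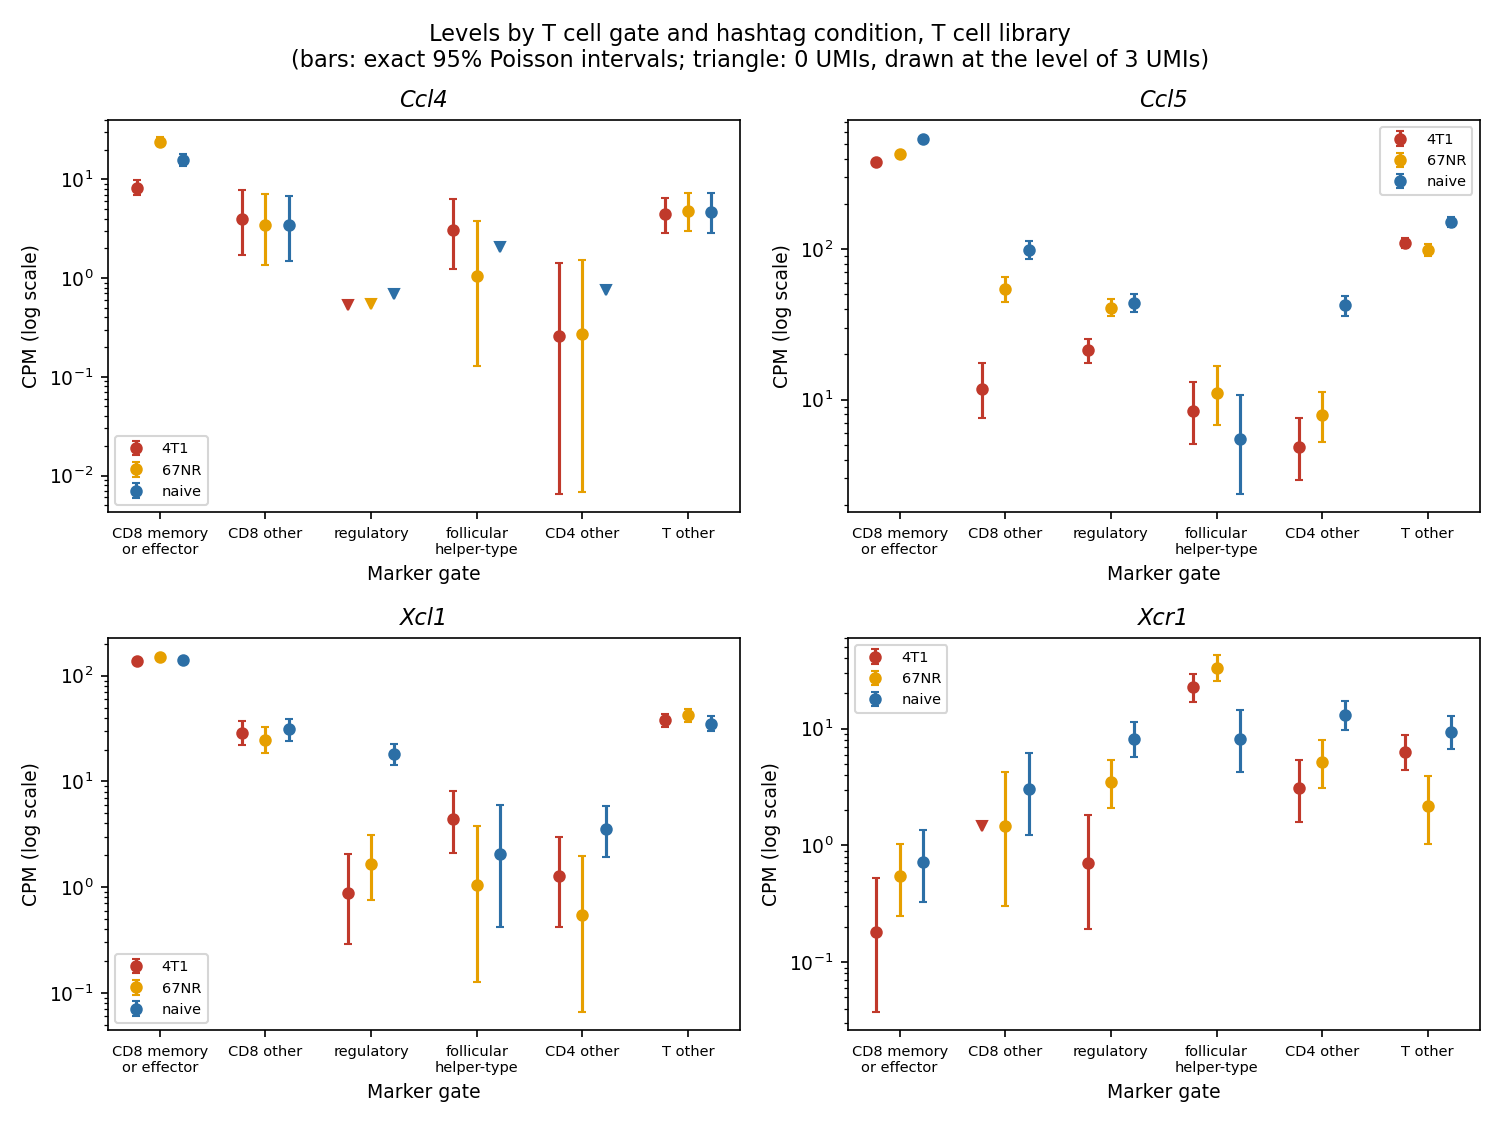
Levels (CPM, log axis) of Ccl4, Ccl5, Xcl1 and Xcr1 in 6 T cell gates of 4T1, 67NR and naive nodes, with exact Poisson 95% intervals, where a triangle marks a sum of 0 UMIs at the level of 3 UMIs. Xcl1 is highest in CD8 T cells with memory or effector markers, between 139 and 150 CPM, and Xcr1 in the tumour groups is highest in follicular helper-type T cells.

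Xcr1, the Xcl1 receptor, was sparse. In the axillary atlas it marked the cDC1 gate, with 97 UMIs in 105 cells, 166 CPM (interval 134 to 202) and 44.8% of cells at a median of 4858 UMIs. In B cells of that atlas, at a median of 5753 UMIs, 0.235% of cells held one. In the myeloid and stromal library 47 of 83 Xcr1 UMIs lay in the gate of cDC1 markers, in 3 of its 56 cells and 34 of them in 1 cell. In the T cell library follicular helper-type CD4 T cells, which help B cells in follicles, held the largest share of Xcr1, 31.7%, with 126 UMIs in 412 cells over all conditions and 7.77% of cells at a median of 10253 UMIs. In CD8 T cells with memory or effector markers, at 13233 UMIs, 0.412% of cells held one. The atlas showed the same gate, with 34 Xcr1 UMIs in 121 follicular helper-type cells, 30.3 CPM and 9.92% of cells.

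By condition, follicular helper-type cells held Xcr1 at 22.5 CPM in 169 cells of 4T1 nodes (interval 16.8 to 29.6), 33.1 CPM in 152 cells of 67NR nodes (25.4 to 42.4) and 8.19 CPM in 91 cells of naive nodes (4.23 to 14.3). The share of cells with a UMI was nearly the same, 7.69%, 7.89% and 7.69%, in 13, 12 and 7 cells. The log2 ratio was 1.46 (0.53 to 2.50) for 4T1 over naive and 2.01 (1.11 to 3.04) for 67NR over naive. It was the 1 gene of 1 measured in this gate, called higher in 4T1 than in naive nodes (1.26% of all genes), higher in 67NR than in naive nodes (1.77%) and not called for 4T1 over 67NR (1.09%). Without the top cell of each group the values were 1.44 and 1.99, on sums under 50 UMIs, and they were 0.68 and 0.62 without the top 5%. In the remaining CD4 T cells naive nodes were instead the highest, with 3.07 CPM in 4T1, 5.15 CPM in 67NR and 13.1 CPM in naive nodes, where 25 of 52 naive UMIs were in 1 cell. Ccr1 was nearly absent from T cells, with 41 UMIs in regulatory T cells over all conditions, the largest share of the library (34.5%).

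The naive axillary atlas held more naive NK cells than the myeloid and stromal library. NK cells held 59.7% of its Ccl5, 69% of Ccl4, 56.9% of Ccl3 and 47.5% of Xcl1. In 1689 NK cells Ccl5 was found at 12315 CPM and in 99.5% of cells, Ccl4 at 558 CPM and 43.6%, Xcl1 at 362 CPM and 48.4% and Ccl3 at 102 CPM and 23.4%, at a median depth of 5470 UMIs. B cells, at a median of 5753 UMIs, held Ccl5 in 14.7%, Ccl4 in 1.32% and Xcl1 in 1.84% of cells. Xcl1 was found in 43.5% of NK cells with Ccl4 and 52.3% of those without. In CD8 T cells with memory markers of the T cell library the shares were 53.8% and 27.3%. After NK cells, Ccl5 was highest in migratory dendritic cells (11981 CPM), T cells with NK markers (5232 CPM), innate lymphoid cells (879 CPM), gamma-delta T cells (764 CPM) and CD8 T cells with memory markers (572 CPM), and Xcl1 in innate lymphoid cells (213 CPM) and T cells with NK markers (141 CPM).

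The mediastinal atlas was read for NK cells alone, and for these with limits. Its NK cells held 5331 CPM of Ccl5, 251 CPM of Ccl4 and 217 CPM of Xcl1, each below the axillary NK level. Each of the 6 NK markers was also found in a smaller share of these 117 cells. Ncr1 was in 64.1% and Prf1 in 66.7%, against 92.8% and 89.2% of axillary NK cells, at medians of 2513 and 5470 UMIs. The part of other cells and of depth in the lower levels was not tested. All other gates there lay between 664 and 1385 CPM of Ccl5, B cells included (963 CPM, a UMI in 78.9% of cells), and between 35.9 and 105 CPM of Xcl1. Droplets with markers of more than 1 lineage made up 21.5% of its cells. Its levels outside NK cells are therefore not read as sources, and the part of free RNA and mixed droplets in them was not tested.

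**Figure D5:**
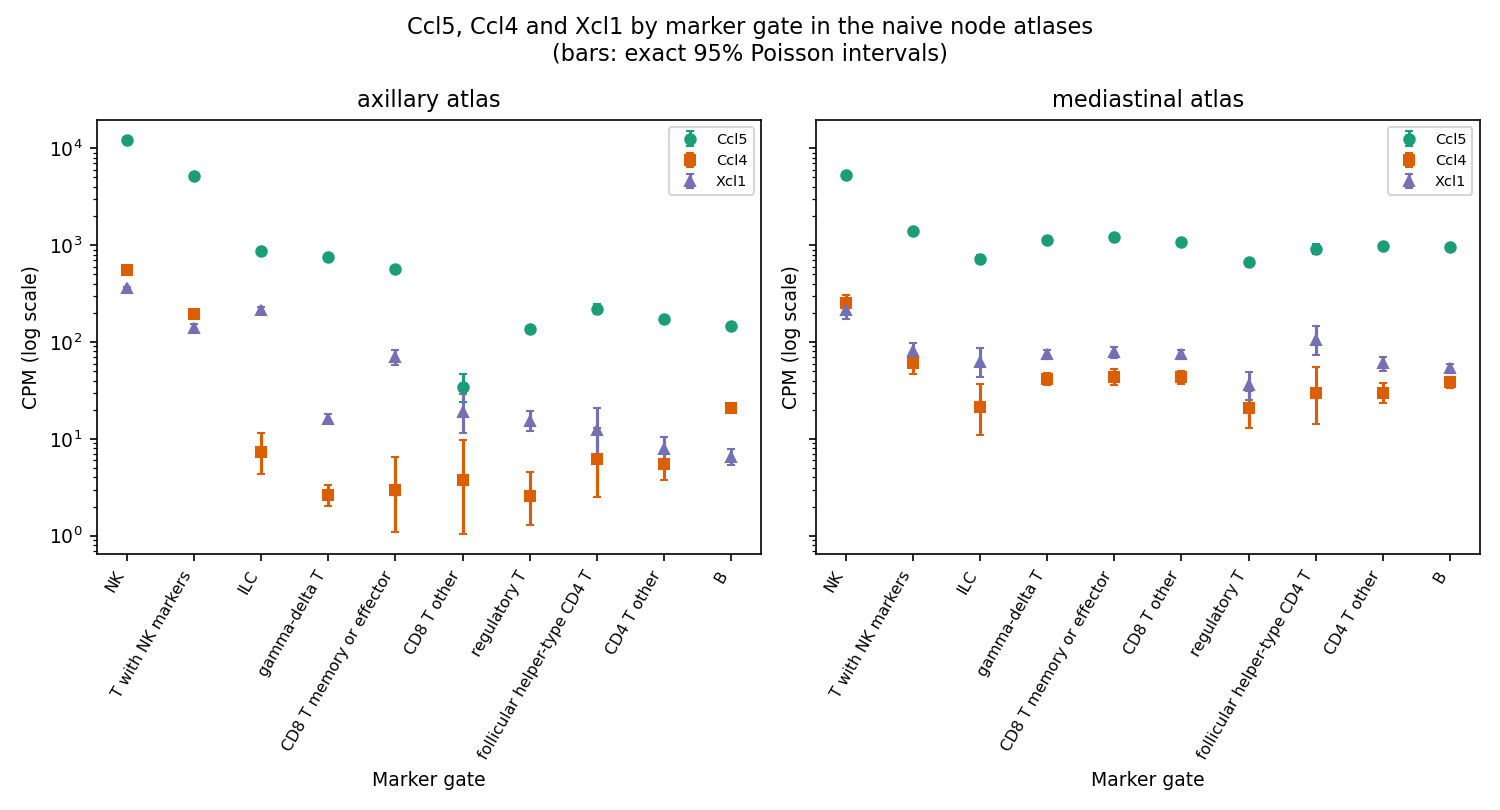
Levels (CPM, log axis) of Ccl5, Ccl4 and Xcl1 in NK, innate lymphoid, B and named T cell gates of both naive atlases, with exact Poisson 95% intervals. Migratory dendritic cells (11981 CPM of Ccl5 in the axillary atlas), cDC1 and T cells of no other gate are not drawn. In the axillary atlas Ccl5 differs widely between gates, with NK cells at 12315 CPM, whereas in the mediastinal atlas the gates other than NK cells lie between 664 and 1385 CPM.

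The genes whose levels most resembled each member were named by Pearson's r over 37 gate and condition sums of the myeloid and stromal and T cell libraries, among 7127 genes on the log2(CPM + 10) scale. The sums share libraries and gates, so r is a description. Ccl3 and Ccl4 resembled each other (r = 0.93), with Cd33 (0.94) and Clec4d (0.93) near Ccl3 and 5430427O19Rik and Dock5 (0.94 each) near Ccl4. Ccl6 was nearest to Fgr (0.99), Cd300a and Lilrb4a (0.98 each), and Ccl9 to Arf2, Tbc1d9 and Aif1 (0.98 each). Ccr1 was nearest to Clec5a, Cd300ld and Cd300lb (0.99 each). Ccl5, with its split sources, had Serpinb9 and Serpinb9b at 0.84 and Serpinb6b at 0.83. Xcl1 was nearest to Nkg7 (0.95), Samd3 (0.93) and Nmnat2 (0.92), and Xcr1 to Gm14718 (0.91), Il2 and Sostdc1 (0.84 each), where Nkg7 and Sostdc1 are also markers of a gate. Antisense genes overlap 2 of the members, and whether strand entered the counting is not given in the sources used here. E230016K23Rik at Ccl6 held 390 UMIs against 32234 for Ccl6 in the myeloid and stromal library, and Gm20743 at Xcl1 held 57 against 8993 for Xcl1 in the T cell library.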

How the data were processed

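The authors deposited raw UMI counts per gene and droplet from the 10x 3′ v3.1 kit, and antibody barcode counts; the submitters' processing notes name Cell Ranger 7.0 and the build mm10. Of 10 samples, 5 were gene libraries and 5 their hashtag or antibody libraries. Total counts per gene library were 36622159 to 121022621 UMIs. Droplets with at least 500 UMIs, 250 genes and at most 10% mitochondrial UMIs were kept, and assigned to a condition where the leading hashtag had at least 10 counts and 3 times the next. Droplets with 2 hashtags (6.98% to 17.0%) and with markers of 2 lineages (1.12% to 21.5%) were left out, and no doublet caller was run. Cells took a gate by at least 3 of 6 markers, and 373 cells tied between gates in the myeloid and stromal library were left out of them. Counts were summed per library, condition and gate and given as CPM. Poisson, Clopper-Pearson and conditional binomial intervals are exact, at 95%. "Measured" means at least 50 UMIs in the higher of 2 sums, and percentages of all genes are over the genes measured in that comparison. Sums of fibroblasts (at least 20 cells each) were tested with edgeR 4.0.16 in R 4.3.3 (filterByExpr, TMM, quasi-likelihood, Benjamini-Hochberg), with the 3 conditions of a library prepared together and the library as the block, and DESeq2 1.42.0 as the alternative. The pairing by library comes from the labels. Other steps used Python 3.11.15 with numpy 2.4.6, scipy 1.17.1, pandas 2.3.3 and matplotlib 3.10.9. Scripts were tested on simulated data. The 8 genes, the gene lists and the markers were chosen with earlier results of these data known. All 8 genes are named in the text, and beside them the 3 genes nearest in level to each and the list members with the largest called ratios. Alternatives were 2 or 4 markers per gate, a hashtag ratio of 10, a minimum of 1000 UMIs per cell, and at most 5% mitochondrial UMIs. Others were TMM scaling, no minimum of UMIs, every cell thinned to 1000 UMIs, no gene filter, other size factors and no block. Leaving out the top cell or the top 5% of cells was added after the data were seen. Some receptor and antibody values are not reported here.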

Additional observations from a re-analysis of the deposited data

Results flagged for a closer look

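The ratio of 4T1 over 67NR ran in opposite directions in different cell types for a pair of ligands. Ccl3 had a log2 ratio of 1.26 in classical monocytes and -3.02 in cDC2 of the same myeloid and stromal library. Ccl4 had a log2 ratio of 1.95 in classical monocytes and -1.55 in CD8 T cells with memory or effector markers of the T cell library. Each group is 1 sum, so the difference between cell types was not tested. The 4T1 and 67NR cDC2 sums rested on 7 and 10 cells with a Ccl3 UMI. The cDC2 ratio was not called without the top 5% of cells (-2.90) or thinned to 1000 UMIs (-1.82). The Ccl4 ratio in CD8 T cells was not called without the top 5% of cells either. A further value comes from data that the tumour comparisons do not use, the LPS cells of the stromal library: Ccl5 in fibroblasts had a log2 ratio of 1.34 for LPS over naive, on 63 and 9 UMIs. Of the LPS sum, 90.5% lay in 19 cells.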

How the results depend on the processing

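All values here are log2 CPM ratios or counts of called gene and gate pairs, and the cause of a difference was not tested. In the myeloid and stromal library, 4T1 over naive gave 10 called pairs, 3 with cells thinned to 1000 UMIs (which leaves fewer UMIs by construction) and 6 with a hashtag ratio of 10. There, 67NR over naive gave 8 pairs, 2 thinned and 5 without the top 5% of cells, and 4T1 over 67NR gave 10 pairs, 2 thinned and 5 without the top cell or without the top 5%. In the T cell library, 4T1 over naive gave 6 pairs, 67NR over naive 5 and 4T1 over 67NR 3. Thinned or without the top 5% of cells each gave 0. Without the top cell the first 2 were 3 and 2, and with no minimum of UMIs the last 2 were 9 and 7. Of the 28 myeloid and stromal and 14 T cell calls, 16 and 5 were called at every setting apart from thinning and the top 5%.

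Some ratios changed sign. In migratory dendritic cells, Ccl3 4T1 over naive (-1.38) was 0.39 thinned. Ccr1 4T1 over naive (-1.01) was 1.07 thinned and 0.40 without the top 5%. Ccl4 4T1 over naive (-1.04) was 0.25 at a hashtag ratio of 10 and 0.61 without the top 5%. Ccl4 67NR over naive (1.05) was -2.18 without the top cell and -1.66 without the top 5%, and 4T1 over 67NR (-2.09) was 1.05 and 2.26. Ccl4 in cDC2, 4T1 over 67NR (1.30), was -0.55 without the top 5%. Ccl5 in remaining CD4 T cells, 67NR over naive (-2.43), was 0.12 without the top 5%, and Ccl6 in B cells, 4T1 over 67NR (-3.12), was 0.0324 thinned. Single alternatives also ended calls of Ccl5 in neutrophils (4T1 over naive, -0.61 at a hashtag ratio of 10) and in regulatory T cells (4T1 over naive, with 2 or 4 markers per gate).

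With TMM scaling the share of called genes that were higher moved by over 10 points in neutrophils, to 60.9% with TMM against 16.7% by CPM for 67NR over naive and 32.2% against 72.0% for 4T1 over 67NR. It was 69.6% against 56.2% in monocytes (4T1 over naive), 28.5% against 41.2% and 26.3% against 38.5% in migratory dendritic cells (4T1 and 67NR over naive), 52.5% against 41.4% and 67.8% against 54.8% in fibroblasts of the myeloid and stromal library (4T1 and 67NR over naive) and 69.7% against 56.0% in LPS over naive fibroblasts. In the fibroblast test, 1 of the 8 genes (Ccl4) was called for 4T1 over naive with no gene filter, against 0 with it. With no replicate block, 0 genes of any kind were called in the 3 comparisons, against 97, 314 and 0 with the library block. Ccl5 for 4T1 over naive was 0.70 in the myeloid and stromal library alone and -1.81 in the stromal library alone, with no test. Depth limits Xcr1, Ccr1 in T cells and Ccl3 in T cells, whose sums seldom reached 50 UMIs.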

Other observations

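Several gates with under 50 cells held high levels of the 8 genes and entered no comparison. In the axillary atlas, 4 cells with basophil or mast cell markers held 407 Ccl3 and 521 Ccl4 UMIs. In the myeloid and stromal library 3 such cells of 4T1 nodes held 988 Ccl3 and 1445 Ccl4 UMIs, and 5 of 67NR nodes held 2808 and 4697. The axillary atlas also held 22 neutrophils, with 484 CPM of Ccr1 and 508 CPM of Ccl6, and 19 classical monocytes, with 747 CPM of Ccl6 and 548 CPM of Ccl9. Its gamma-delta T cells held 109 Ccr1 UMIs, 36.9% of the Ccr1 of the library, at 4.30 CPM in 3252 cells.

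In the myeloid and stromal library 17 NK cells of 4T1 nodes held 8176 CPM of Ccl5, 441 CPM of Ccl4 and 313 CPM of Xcl1, beside 115 naive NK cells with 11255, 465 and 292 CPM. Ccl1, a ligand of Ccr8, was found in CD8 T cells with memory or effector markers with 86 UMIs in 4T1 nodes, 1 in 67NR nodes and 99 in naive nodes.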
